A study of Sus scrofa with 6 samples.

Results

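The genes that carry glucose to pyruvate and lactate, pyruvate into the tricarboxylic acid (TCA) cycle, and reducing equivalents (NADH) from the cytosol into the mitochondrion were compared between fetal and neonatal pig lung. The list held 57 genes, chosen by symbol, and 48 of them matched an Ensembl gene identifier among the 14579 mRNAs of the deposited table. Of these, 20 belong to glycolysis, 9 to the control of pyruvate, 12 to the TCA cycle and 7 to the shuttles. The other 9 (SLC2A1, SLC2A3, ALDOA, LDHB, SLC16A1, CS, IDH3A, GOT2 and SLC25A11) had no identifier paired with the symbol and were not analysed here, so that both listed glucose transporters, citrate synthase and the B subunit of lactate dehydrogenase are missing from all that follows. The fetal group was made up of 3 female piglets taken on the last day before birth, and the neonatal group of 3 female piglets taken 2 days after birth. All were Tibetan × Meishan hybrids from sows kept alike until caesarean and parturition, and each group of 3 piglets came from its own 3 sows. Piglet and sow thus cannot be told apart within a group. The paper does not assign the mode of delivery to the groups by name, and where it follows the groups it cannot be told apart from age. All animals received ketamine before they were killed, and RNA came from pieces of whole lung, which hold epithelium, vessels, mesenchyme and blood.

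Glycolysis splits glucose into pyruvate in the cytosol. Pyruvate is then either reduced to lactate, which regenerates the NAD that glycolysis needs and leaves the cell through monocarboxylate transporters, or oxidised by the mitochondrial pyruvate dehydrogenase complex, which the pyruvate dehydrogenase kinases switch off. The TCA cycle oxidises the acetyl units that the complex makes and passes electrons to the respiratory chain. Because NADH cannot cross the inner mitochondrial membrane, the malate-aspartate and glycerol phosphate shuttles carry its electrons inside. Fetal lung lives at low oxygen tension, and several glycolytic genes are known targets of the hypoxia-inducible factors, while surfactant synthesis in alveolar type II cells draws on the same pathways for carbon and energy.

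Levels are given as FPKM, fragments per length of transcript and per mapped fragments of the library, which is a scale per length, so that levels of different genes can be set side by side. The table holds no read counts and the depth behind a value cannot be read from it, which leaves the spread between the 3 piglets of a group as the only error. The type II marker SFTPC stood at 3171 to 3902 FPKM in fetal and 4233 to 8790 FPKM in neonatal lungs, so the tissue label held for each library. Summed FPKM ranged from 339491 in Fetal2 to 777982 in Neonatal3. Differences were tested with limma on log2(FPKM + 1) over all 14579 mRNAs, with Benjamini-Hochberg adjustment and a threshold of 0.05. The median difference over all mRNAs was 0.13 (neonatal minus fetal) and fell to -0.0090 after median-of-ratios scaling and -0.038 after quantile normalization, so differences near 0.13 carry no direction of their own. Summed levels of several marker lists did not overlap between the groups: the summed FPKM of 7 proliferation genes was 9.56 to 12.5 before and 80.5 to 99.0 after birth, that of 4 mesenchymal genes 867 to 1148 and 1724 to 2518, that of 4 endothelial genes 379 to 476 and 559 to 809, and that of 7 type II genes 4875 to 5446 and 6597 to 11791. Within the lists members differed: CLDN5 carried the endothelial sum (mean 229 and 537 FPKM) while KDR was lower without overlap (57.2 and 43.0 FPKM), TEK had the lower mean (8.40 and 5.86 FPKM) and PECAM1 overlapped, and SFTPC carried the type II sum while NAPSA had 74.0 and 62.4 FPKM and SLC34A2 overlapped. All 7 proliferation genes, 2 mesenchymal genes and no endothelial or type II gene passed the threshold, and the part of these differences in the results below was not tested.

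Of the 48 genes, 5 were higher and 1 lower in the neonatal lungs past the threshold. Those that rose were HK3, ENO1, OGDH, DLST and MDH2, and the gene that fell was PFKFB3. Calls made up 12.5% of the 48 genes, against 6.87% of all mRNAs, with higher calls at 5.41% and lower calls at 1.45% of all mRNAs. Of all calls 78.8% were higher ones, a share that went to 66.0% after median-of-ratios scaling and 57.9% after quantile normalization. At an unadjusted p under 0.05 there were 16 of the 48 genes and 3535 of all 14579 mRNAs. In 22 of the 48 genes (45.8%) fetal and neonatal values did not overlap, 17 with all neonatal piglets above and 5 with all neonatal piglets below, against 30.5% of all mRNAs without overlap (20.9% above and 9.64% below). The median difference of the 48 genes was 0.38 on the log2(FPKM + 1) scale, and 38 (79.2%) had the higher mean in the neonatal group, against 59.9% of all mRNAs. After median-of-ratios scaling the median was 0.23 with 33 genes (68.8%) higher, against 49.3% of all mRNAs, and after quantile normalization 0.18 with 27 (56.2%) higher, against 46.8%. None of the 6 calls held when any 1 piglet other than Neonatal1 was left out, while the calls over all mRNAs also dropped from 1001 to between 196 and 397. Without Neonatal1, ENO1, HK3, MDH2 and PFKFB3 stayed past the threshold. In bulk tissue, fewer cells of a type and less RNA per cell cannot be told apart.

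**Figure D1:**
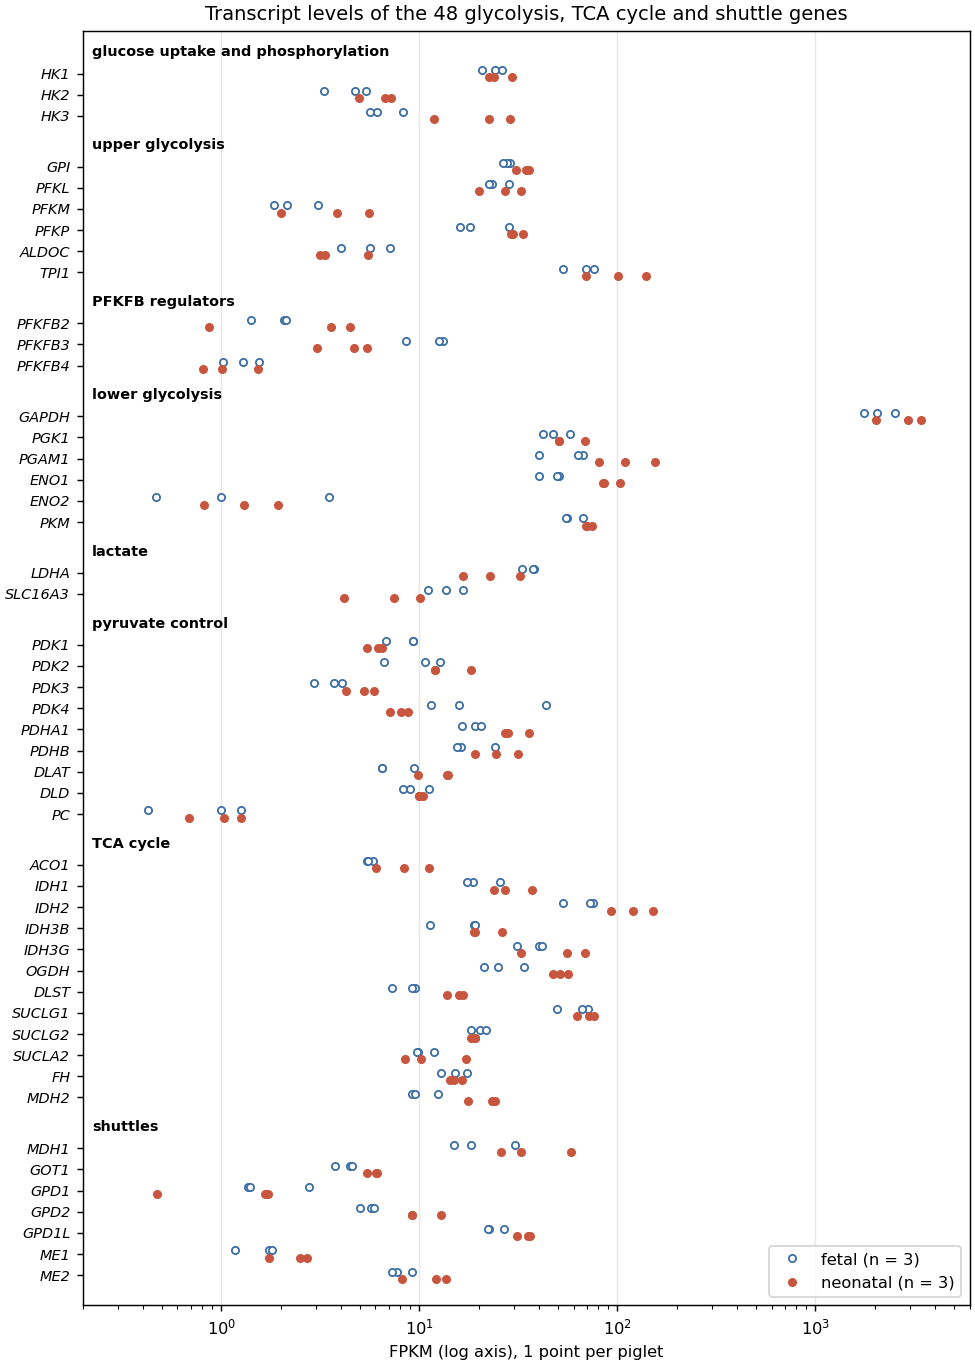
Transcript level of each of the 48 genes in FPKM on a log axis, with fetal piglets as open and neonatal piglets as filled points, ordered by role. GAPDH lies far to the right of all others at 1765 to 3400 FPKM, and most other genes lie between 1 and 150 FPKM, with PFKFB3 the only regulator of its family whose neonatal points all lie left of its fetal points.

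The 48 genes were well expressed: 37 ranked above the middle of all mRNAs by mean FPKM, and none was listed at 0 in any sample. Their median of mean FPKM was 15.5, against 5.77 over all mRNAs. The glyceraldehyde phosphate dehydrogenase GAPDH alone held between 62.6% and 73.5% of their summed FPKM in each sample. Piglets of a group differed about as much in these genes as in others: the median coefficient of variation was 18.2% in the fetal and 22.5% in the neonatal group, against 22.6% and 26.6% over all mRNAs. GPI was the steadiest gene among the fetal lungs (3.90%) and SUCLG2 among the neonatal lungs (2.76%), while ENO2 (97.5%, fetal) and PFKFB2 (63.1%, neonatal) varied most.

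Hexokinases trap glucose in the cell by phosphorylation. HK3, an isoform known from myeloid cells, stood at 6.08, 8.27 and 5.63 FPKM before birth (values are always given in the order Fetal1 to Fetal3 and Neonatal1 to Neonatal3) and at 11.9, 28.5 and 22.5 FPKM after it. All neonatal piglets lay above all fetal ones, with Neonatal1 closest to the fetal range. The mean went from 6.66 ± 1.41 to 21.0 ± 8.42 FPKM (SD, n = 3 each), a log2 difference of 1.45 (standard error 0.32, adjusted p = 0.0401 in limma). The adjusted p was 0.0504 after median-of-ratios scaling and 0.118 to 0.143 when a piglet other than Neonatal1 was left out. Of 7 listed neutrophil markers, 5 had a row. Their summed FPKM was 154.6, 81.7 and 89.6 in the fetal and 842, 1170 and 1311 in the neonatal samples, without overlap. Among the fetal samples this sum was lowest in Fetal2, where HK3 was highest, but the single markers differed. S100A8 and S100A9 were lowest in Fetal2, and S100A12 and ELANE in Fetal3. CSF3R was highest in Fetal2, at 1.33, 2.58 and 0.888 FPKM in the fetal samples. CSF3R was above in every neonatal piglet and did not pass (adjusted p = 0.0846 in limma). S100A8, S100A9 and S100A12 passed the threshold, while ELANE, the elastase of immature neutrophils, was at 0.0710 to 1.28 FPKM before birth and listed at 0 in the 3 neonatal samples, and MPO and CXCR2 had no row. The summed level of 5 macrophage markers overlapped, at 263 to 621 and 461 to 1107 FPKM, with 0 of 5 past the threshold in limma. MARCO and C1QA, which overlapped, made up most of that sum, whereas CD68 (mean 8.14 and 20.2 FPKM, adjusted p = 0.0506) and MRC1 (3.75 and 7.26 FPKM, adjusted p = 0.112) were above in every neonatal piglet. The part of these cells in the difference of HK3 was not tested.

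The other hexokinases did not pass. HK1, the broadly expressed isoform, had 23.6 ± 2.78 and 25.2 ± 3.69 FPKM (SD, n = 3 each) and a log2 difference of 0.09 with a 95% interval from -0.35 to 0.52, which turned to -0.08 after median-of-ratios scaling. HK2, the inducible isoform, lay between 3.31 and 5.39 FPKM before and 4.97 and 7.19 FPKM after birth (adjusted p = 0.305 in limma). Shares of an isoform in the summed FPKM of its family are ratios within a sample, which scaling between samples leaves as they are. The share of HK1 was 69.5%, 67.6% and 66.6% in the fetal and 54.7%, 45.2% and 46.4% in the neonatal samples, and that of HK3 was 16.2%, 23.2% and 18.2% against 29.0%, 43.8% and 43.9%. Neither share overlapped between the groups (two-sided exact permutation p = 0.1, which is the lower limit of a design of 3 against 3, and 0.3 after adjustment over 21 shares of 10 families).

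In the upper part of glycolysis, 0 of 6 genes passed in limma, and 1 (PFKP) had an unadjusted p under 0.05. Over all mRNAs, 3535 of 14579 had such a p. Phosphofructokinase commits sugar to glycolysis. Its platelet-type subunit PFKP was measured at 28.2, 16.0 and 17.9 FPKM in fetal and 33.2, 29.9 and 29.1 FPKM in neonatal lungs, which did not overlap, although Fetal1 came close (log2 difference 0.59, adjusted p = 0.185 in limma). The liver-type subunit PFKL overlapped fully, at 22.5 to 28.2 and 20.0 to 32.5 FPKM. PFKM, the muscle-type subunit, made up only 3.39% to 9.48% of the family in any sample. PFKP held 42.8% ± 4.85 of the family before and 50.5% ± 6.0 after birth (SD, n = 3 each; two-sided exact permutation p = 0.2, 0.382 after adjustment). The glucose phosphate isomerase GPI differed little but without overlap, with 26.4 to 28.5 FPKM in fetal and 30.9 to 35.8 FPKM in the neonatal group (log2 difference 0.28, adjusted p = 0.324 in limma). That difference was -0.0011 after quantile normalization. The aldolase ALDOC and the triose phosphate isomerase TPI1 overlapped, at 4.02 to 7.12 and 3.14 to 5.52 FPKM for ALDOC and at 53.0 to 76.2 and 69.0 to 139.4 FPKM for TPI1.

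The PFKFB enzymes make and break the fructose bisphosphate that activates phosphofructokinase. PFKFB3, the form with the highest kinase activity, was measured at 13.2, 8.52 and 12.6 FPKM before birth and 5.41, 3.04 and 4.68 FPKM after it. The groups were clearly apart, with Fetal2 the lowest before and Neonatal2 the lowest after birth. The log2 difference was -1.21 (standard error 0.25, adjusted p = 0.0341 in limma), a fetal mean 2.61 times the neonatal one. With all 6 piglets, PFKFB3 passed under each of the 7 other settings of the fit, at adjusted p from 0.0198 to 0.0456, and it reached 0.0761 to 0.125 when a piglet other than Neonatal1 was left out. PFKFB2 and PFKFB4 were low, between 0.805 and 4.45 FPKM over all samples, and overlapped. PFKFB3 made up 79.7%, 73.1% and 81.0% of the family in the fetal lungs and 54.2%, 55.9% and 47.1% in the neonatal lungs (two-sided exact permutation p = 0.1, 0.3 after adjustment). The remainder went to PFKFB2 in Neonatal1 (35.7%) and Neonatal3 (44.8%) but to PFKFB4 in Neonatal2 (28.2%).

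**Figure D2:**
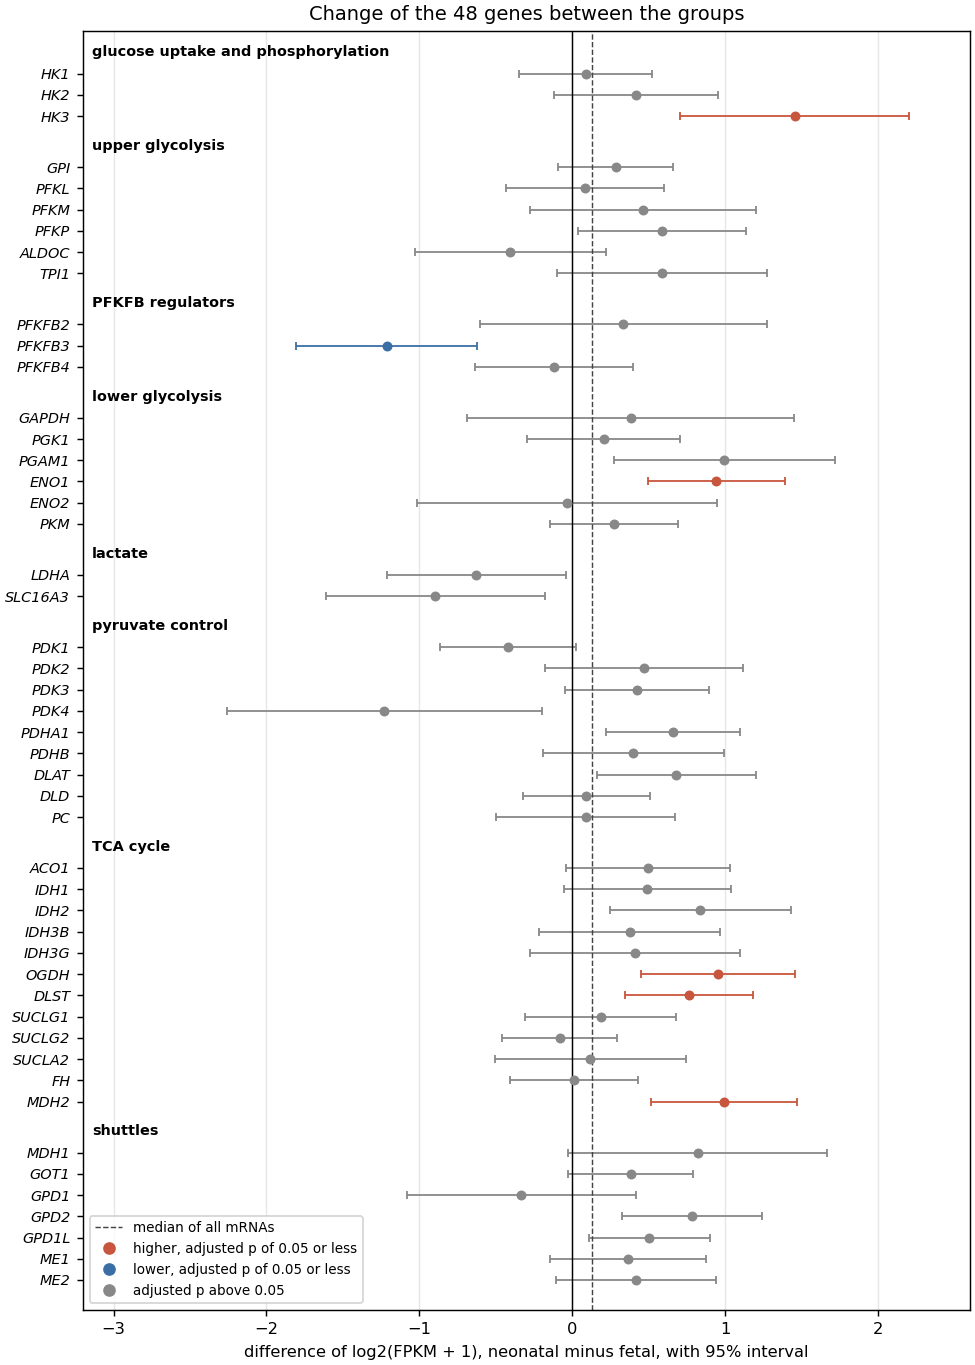
Difference of log2(FPKM + 1), neonatal minus fetal, with its 95% interval for each of the 48 genes, ordered by role; the dashed line is the median of all mRNAs at 0.13. Coloured points are the 6 genes past the threshold, 5 to the right of 0 and PFKFB3 to the left at -1.21, and both lactate genes also lie left of 0.

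In the lower part of glycolysis, 1 of 6 genes passed, against 6.87% of all mRNAs. Enolase makes phosphoenolpyruvate. Its alpha form ENO1 was measured at 50.6, 49.4 and 40.3 FPKM before and 85.3, 102.4 and 84.4 FPKM after birth. Every neonatal piglet exceeded every fetal piglet by a wide margin (log2 difference 0.94, standard error 0.19, adjusted p = 0.0317 in limma). The call was lost after quantile normalization, at an adjusted p of 0.124, and ranged from 0.0731 to 0.112 when a piglet other than Neonatal1 was left out. ENO2, the neuronal form, reached at most 3.48 FPKM and its direction depended on the piglets used. The phosphoglycerate mutase PGAM1, next to enolase in the pathway, had 66.7, 40.0 and 62.9 FPKM in fetal and 80.6, 109.4 and 154.8 FPKM in neonatal lungs. It too did not overlap, with Neonatal3 highest, and did not pass (log2 difference 0.99, 95% interval 0.27 to 1.72, adjusted p = 0.104). The pyruvate kinase PKM had 55.03 to 67.0 and 69.6 to 74.6 FPKM, a small difference without overlap (0.27, adjusted p = 0.389), which became -0.07 after quantile normalization. The phosphoglycerate kinase PGK1 overlapped at 41.9 to 57.9 and 50.8 to 68.7 FPKM. Near-identical copies of genes such as GAPDH, PGAM1, ENO1 and LDHA can share reads, so their levels are less certain than the spread shows.

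GAPDH, which the study used as a control gene in its PCR measurements, had 1765, 2036 and 2527 FPKM before birth and 2016, 2947 and 3400 FPKM after it. The ranges overlapped and the mean of the neonatal group was 1.32 times the fetal mean. Its log2 difference of 0.38 had a 95% interval from -0.69 to 1.45 (adjusted p = 0.642 in limma), and it was -0.39 after quantile normalization. When all values were divided by the geometric mean of GAPDH and TOP2B, both control genes of the study, a scaling that was added late, with the data in view, 2 of the 48 genes passed, HK3 (adjusted p = 0.04995 in limma) and PFKFB3 (adjusted p = 0.0350).

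At the lactate branch both listed genes with a row, LDHA and SLC16A3, were lower after birth without overlap. Neither passed in limma, though both had an unadjusted p under 0.05. Over all mRNAs 9.64% lay below without overlap, and 3535 of 14579 had an unadjusted p under 0.05. LDHA, the lactate dehydrogenase subunit that favours the reduction of pyruvate, had 33.0, 38.1 and 37.6 FPKM in fetal and 32.2, 22.8 and 16.6 FPKM in neonatal lungs. Neonatal1 sat just below the fetal range and the other two well below it (log2 difference -0.63, 95% interval -1.21 to -0.04, adjusted p = 0.183 in limma). SLC16A3, the transporter MCT4 that exports lactate from glycolytic cells, had 16.7, 11.02 and 13.7 FPKM before and 4.16, 10.1 and 7.47 FPKM after birth. Here Neonatal2 came nearest to the fetal range (log2 difference -0.89, 95% interval -1.61 to -0.18, adjusted p = 0.132). After median-of-ratios scaling the differences were -0.80 and -1.05, with adjusted p values of 0.141 and 0.0647.

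**Figure D3:**
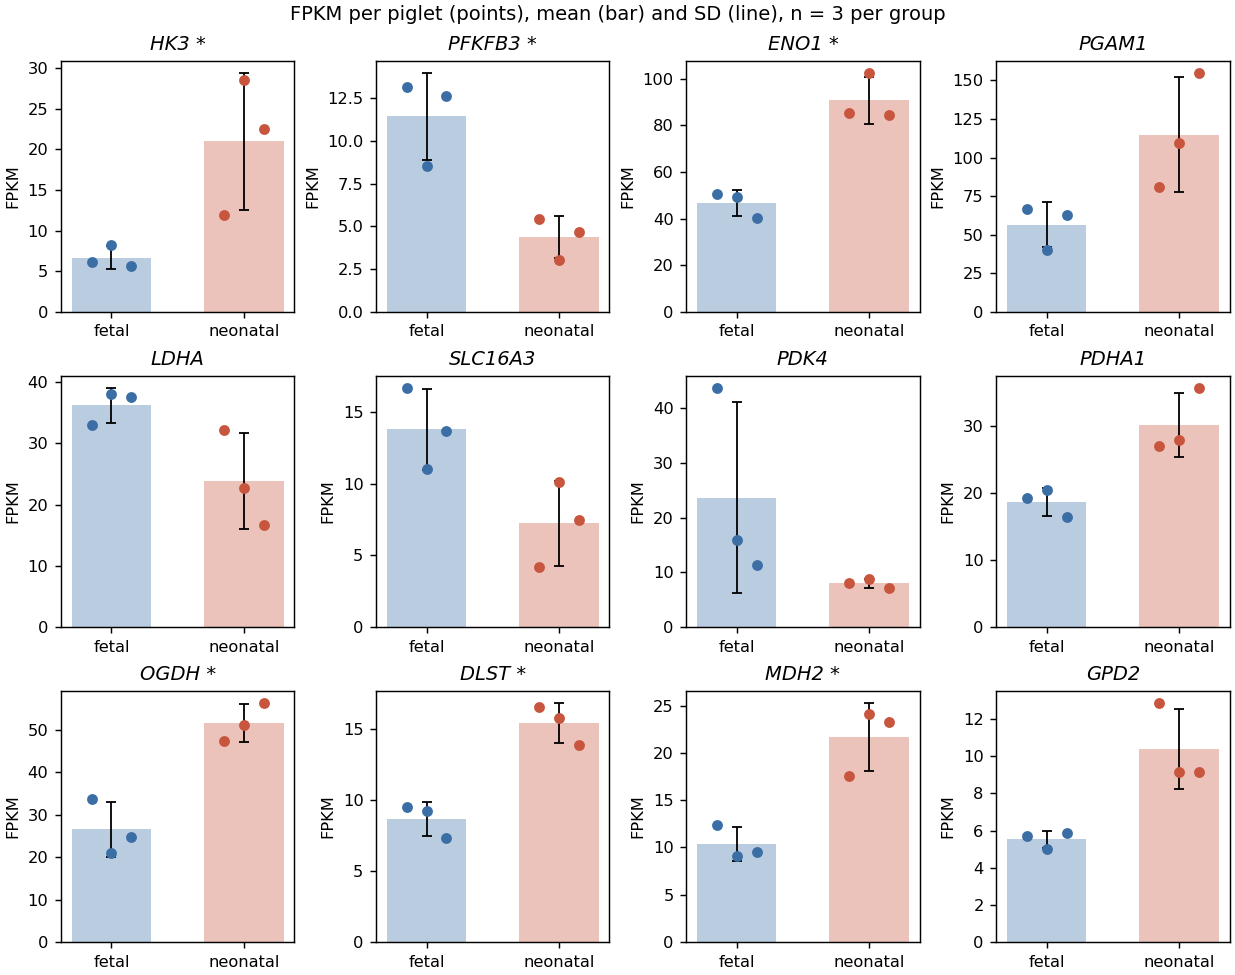
FPKM of 12 genes in each piglet (points) with the group mean (bar) and SD (line, n = 3 per group); a star marks the genes past the threshold in limma. HK3, ENO1, OGDH, DLST and MDH2 are higher and PFKFB3 is lower in the neonatal lungs, LDHA, SLC16A3 and PDK4 are lower without passing, and the fetal bar of PDK4 rests on Fetal1 at 43.7 FPKM.

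Pyruvate control is the step between glycolysis and the TCA cycle, and 0 of its 9 genes passed in limma. An unadjusted p under 0.05 in limma was found in 3 (PDK4, PDHA1 and DLAT), against 3535 of all 14579 mRNAs. The groups did not overlap in 5 genes (55.6%), against 30.5% of all mRNAs. The 4 pyruvate dehydrogenase kinases went both ways. PDK4, the kinase induced by fasting and glucocorticoids, had 43.7, 15.8 and 11.4 FPKM before birth and 8.10, 8.79 and 7.13 FPKM after it. All neonatal values were below the fetal ones, and the fetal values were themselves spread over a wide range, with Fetal1 far above the rest (log2 difference -1.23, 95% interval -2.26 to -0.20, adjusted p = 0.145 in limma). Without Fetal1 the difference was -0.68. PDK1 was also lower without overlap, at 6.80 to 9.27 against 5.41 to 6.46 FPKM (-0.42, adjusted p = 0.232). PDK3 was higher without overlap, at 2.93 to 4.08 against 4.25 to 5.88 FPKM (0.42, adjusted p = 0.248). PDK2, the widely expressed kinase, overlapped at 6.60 to 12.7 and 11.9 to 18.2 FPKM.

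By share, PDK4 made up 67.0%, 44.7% and 31.4% of the kinase FPKM in the fetal lungs and 25.7%, 23.3% and 23.5% in the neonatal lungs. Fetal3 was closest to the neonatal samples, and the difference of the mean shares was -23.5 percentage points, or -13.9 without Fetal1. PDK2 took the opposite course, with 16.3%, 18.6% and 35.0% before and 38.0%, 48.2% and 39.3% after birth. The share of PDK3 also differed without overlap, at 6.25% to 10.4% and 11.3% to 19.4%, while that of PDK1 overlapped. The most abundant kinase was thus PDK4 in Fetal1 and Fetal2 and PDK2 in Fetal3 and in all neonatal samples. Exact permutation tests gave the smallest possible two-sided p of 0.1 for PDK2, PDK3 and PDK4 (0.3 after adjustment over the 21 shares).

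**Figure D4:**
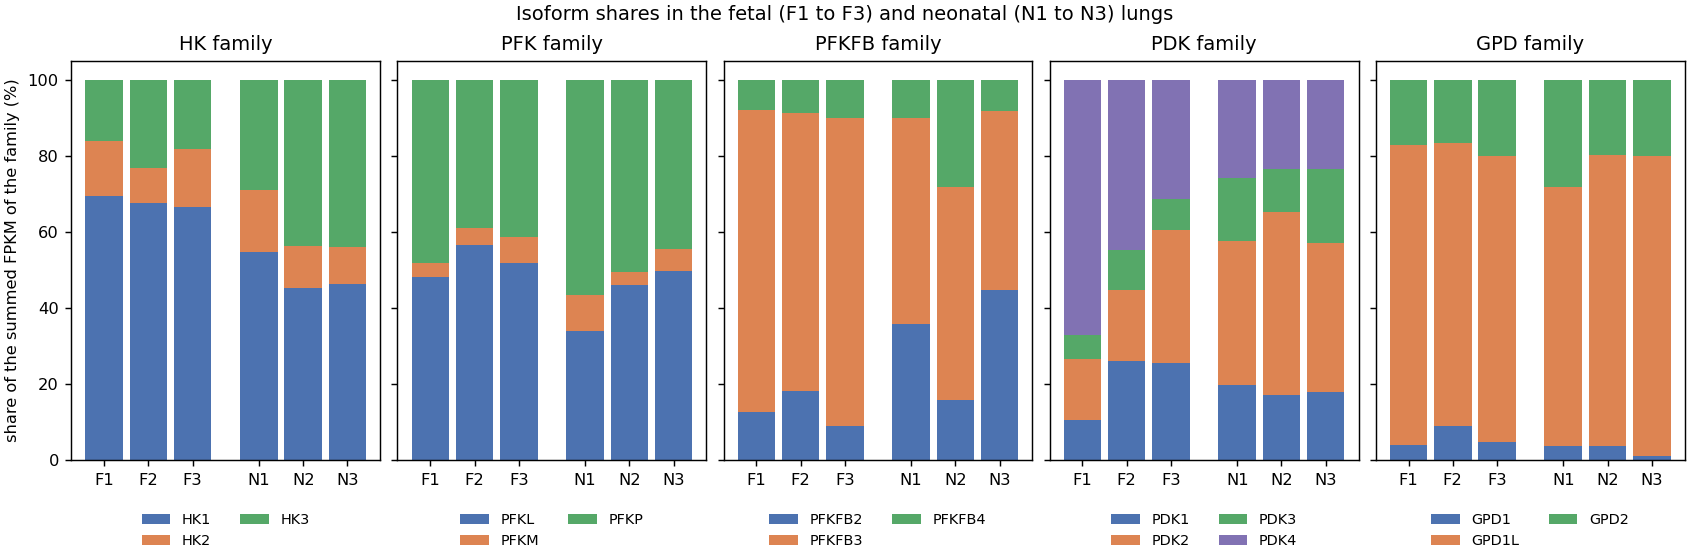
Share of each isoform in the summed FPKM of its family, in percent, for each fetal (F1 to F3) and neonatal (N1 to N3) piglet. HK3 widens from 16.2% to 23.2% before birth to 29.0% to 43.9% after it, PFKFB3 narrows from at least 73.1% to at most 55.9%, and PDK4 narrows from 31.4% to 67.0% to 23.3% to 25.7%.

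The 4 listed subunits of the pyruvate dehydrogenase complex all had the higher mean after birth, against 59.9% of all mRNAs. After median-of-ratios scaling 3 of the 4 did, against 49.3% of all mRNAs. PDHX, a further subunit, stands in the second list of pathway genes and is named here after its values were seen. It overlapped, with means of 5.70 and 5.25 FPKM (log2 difference -0.13). None of the 4 listed subunits passed. PDHA1, the catalytic subunit that the kinases phosphorylate, had 19.2, 20.5 and 16.4 FPKM in fetal and 27.0, 27.9 and 35.7 FPKM in neonatal lungs. All neonatal piglets were above all fetal ones, and the adjusted p was 0.0854 (log2 difference 0.66, 95% interval 0.22 to 1.10, limma). DLAT, the acetyltransferase core, had 6.46 to 9.34 and 9.83 to 13.9 FPKM, also without overlap (0.68, adjusted p = 0.117). PDHB, the partner of PDHA1, overlapped at 15.5 to 24.2 and 19.1 to 31.3 FPKM. DLD, the dihydrolipoamide dehydrogenase that the complex shares with the 2-oxoglutarate dehydrogenase complex, had 8.26 to 11.2 and 9.94 to 10.4 FPKM and a log2 difference of 0.09 with a 95% interval from -0.32 to 0.51. The pyruvate carboxylase PC, which refills the cycle, was near 1 FPKM in both groups (0.424 to 1.26 and 0.684 to 1.26 FPKM).

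In the TCA cycle, 11 of 12 genes had the higher neonatal mean, 3 passed and 5 did not overlap, all of these with the neonatal piglets above. Over all mRNAs 59.9% had the higher neonatal mean, 5.41% were called higher and 20.9% lay above without overlap. The oxoglutarate dehydrogenase OGDH had 33.8, 21.1 and 24.8 FPKM in fetal and 47.4, 51.2 and 56.4 FPKM in neonatal lungs. The groups stood well apart (log2 difference 0.96, standard error 0.22, adjusted p = 0.0436 in limma). DLST, the succinyltransferase of the same complex, had 9.48, 9.20 and 7.31 FPKM before and 16.6, 15.8 and 13.8 FPKM after birth. It too was apart in every piglet (log2 difference 0.77, standard error 0.18, adjusted p = 0.0483). Both calls were lost when any 1 of the 6 piglets was left out, at adjusted p from 0.0539 to 0.149 for OGDH and 0.0815 to 0.143 for DLST, and after quantile normalization, at 0.0620 and 0.111. With a constant prior variance they were lost too, at 0.0507 and 0.0590, and DLST also after median-of-ratios scaling, at 0.101.

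MDH2, the mitochondrial malate dehydrogenase that closes the cycle and serves the malate-aspartate shuttle, had 12.4, 9.14 and 9.54 FPKM in fetal and 17.5, 24.2 and 23.3 FPKM in neonatal lungs. All neonatal values were higher, with Neonatal1 the lowest of them (log2 difference 1.00, standard error 0.20, adjusted p = 0.0329 in limma). The adjusted p was 0.0315 after median-of-ratios scaling and 0.0310 after quantile normalization, but 0.0754 when scaled to GAPDH and TOP2B. It went to between 0.0669 and 0.137 when a piglet other than Neonatal1 was left out. IDH2, the mitochondrial isocitrate dehydrogenase that makes NADPH, was the most abundant TCA gene and had 75.2, 53.3 and 72.5 FPKM before and 93.2, 120.4 and 151.3 FPKM after birth. It did not overlap and did not pass (0.84, 95% interval 0.25 to 1.43, adjusted p = 0.0974). The subunits IDH3B and IDH3G of the NAD-linked enzyme overlapped (0.38 and 0.41, adjusted p = 0.401 and 0.427). ACO1 and IDH1, cytosolic counterparts of cycle enzymes, had log2 differences of 0.50 and 0.49 (adjusted p = 0.239 and 0.244).

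Between these steps lie succinyl-CoA ligase, succinate dehydrogenase and fumarase. The succinyl-CoA ligase subunits SUCLG1, SUCLG2 and SUCLA2 had log2 differences of 0.19, -0.08 and 0.12, and the fumarase FH had 12.9 to 17.4 FPKM in fetal and 14.3 to 16.3 FPKM in the neonatal group, a difference of 0.01. Their 95% intervals reached from -0.31 to 0.68, -0.46 to 0.29, -0.51 to 0.74 and -0.40 to 0.43. Whether they differed from OGDH and MDH2 was not tested. The succinate dehydrogenase subunits stand in the second list of pathway genes and are named here after their values were seen. SDHA, the flavoprotein, had 15.3 to 20.8 FPKM before and 26.1 to 32.4 FPKM after birth, without overlap (log2 difference 0.68, adjusted p = 0.0776 in limma). SDHB, the iron-sulphur subunit, did not overlap either (0.52, adjusted p = 0.212), while the membrane anchors SDHC and SDHD overlapped (-0.13 and 0.11). The share of SUCLG2, the GTP-forming subunit, against SUCLA2, the ATP-forming one, overlapped (63.0% to 68.8% and 52.6% to 68.5%; two-sided exact permutation p = 0.7, 0.84 after adjustment).

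Among the shuttle genes, 0 of 7 passed in limma and 2 (GPD2 and GPD1L) had an unadjusted p under 0.05. Of the 7, 6 had the higher neonatal mean and 3 did not overlap, all of these with the neonatal piglets above. Over all mRNAs 59.9% had the higher neonatal mean and 20.9% lay above without overlap. An unadjusted p under 0.05 in limma was found in 3535 of all 14579 mRNAs. GPD2, the mitochondrial glycerol phosphate dehydrogenase that feeds electrons straight to the respiratory chain, had 5.73, 5.02 and 5.87 FPKM in fetal and 12.9, 9.13 and 9.14 FPKM in neonatal lungs. All neonatal piglets were above all fetal ones, Neonatal1 most (log2 difference 0.78, standard error 0.20, adjusted p = 0.0590 in limma, and 0.0472 when only mRNAs above 1 FPKM in at least 3 samples were tested). On the cytosolic side GPD1L was higher without overlap, at 22.3 to 26.7 against 31.2 to 36.1 FPKM (0.50, adjusted p = 0.127). GPD1 was low, at 1.37 to 2.76 and 0.473 to 1.72 FPKM, and its share of the family did not overlap, at 4.06% to 9.08% before and 1.04% to 3.73% after birth (two-sided exact permutation p = 0.1, 0.3 after adjustment). That difference of -3.16 percentage points was -1.59 without Fetal2.

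Of the malate-aspartate shuttle, the cytosolic aspartate aminotransferase GOT1 was higher without overlap, at 3.77 to 4.56 against 5.41 to 6.13 FPKM (0.38, adjusted p = 0.230 in limma). The cytosolic malate dehydrogenase MDH1 had 30.4, 18.2 and 15.0 FPKM in fetal and 25.7, 32.7 and 58.4 FPKM in neonatal lungs. Fetal1 and Neonatal1 crossed, and Neonatal3 stood highest (0.82, adjusted p = 0.218). The share of MDH1 against MDH2 overlapped at 61.2% to 71.0% and 57.5% to 71.5%. The malic enzymes ME1 and ME2, which return malate to pyruvate, had log2 differences of 0.36 and 0.42 and overlapped.

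Set side by side, the blocks had median log2 differences of 0.28 for glycolysis, 0.40 for pyruvate control, 0.45 for the TCA cycle and 0.42 for the shuttles, against 0.13 over all mRNAs. After median-of-ratios scaling these were 0.11, 0.23, 0.28 and 0.26, and after quantile normalization -0.09, 0.15, 0.20 and 0.24. The direction of glycolysis as a block thus depended on the scaling. Within each block the range was wide, from -1.21 to 1.45 in glycolysis and from -0.08 to 1.00 in the TCA cycle. Relative to the fetal mean, the median of the TCA genes was 0.18, -0.18 and -0.04 in the fetal and 0.23, 0.54 and 0.65 in the neonatal samples, so that Fetal1 and Neonatal1 stood close together. The 21 mitochondrial enzymes and the 27 cytosolic or membrane ones had similar medians, 0.41 and 0.36, with 3 calls each. As a share of all FPKM, glycolysis held 0.630% ± 0.0937 before and 0.547% ± 0.0409 after birth, and the TCA genes 0.0733% ± 0.00716 and 0.0710% ± 0.00575 (SD, n = 3 each), with overlap in both and two-sided exact permutation p of 0.2 and 0.6 (0.6 and 0.8 after adjustment over 4 blocks).

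Ratios between neighbouring enzymes were formed within each sample after the values had been seen and are given as descriptions. The summed FPKM of the 4 kinases over that of PDHA1, PDHB, DLAT and DLD was 1.02, 0.678 and 0.778 in the fetal and 0.477, 0.493 and 0.334 in the neonatal samples. It did not overlap, although the kinase sum alone did (35.4 to 65.2 and 30.4 to 37.7 FPKM). The sum of these 4 complex subunits alone did not overlap, at 46.6 to 64.0 and 65.9 to 90.9 FPKM. LDHA over PDHA1, the enzymes that compete for pyruvate, was 1.72, 1.86 and 2.30 before and 1.19, 0.815 and 0.466 after birth, again without overlap. OGDH over DLD, subunits of 1 complex, was 3.02, 2.34 and 3.01 in the fetal and 4.75, 4.90 and 5.67 in the neonatal samples, and DLST over DLD went from 0.845 to 1.02 up to 1.39 to 1.66. MDH2 over FH was 0.547 to 0.819 in the fetal and 1.23 to 1.55 in the neonatal group. ENO1 over PGK1 was 0.696 to 1.18 and 1.23 to 2.01, with Fetal2 and Neonatal3 nearly touching. PDHA1 over DLD was 1.71 to 2.28 and 2.67 to 3.59, and DLAT over DLD 0.718 to 0.833 and 0.985 to 1.40. IDH2 over IDH3B was 3.78 to 4.73 in the fetal and 4.96 to 6.32 in the neonatal group. None of these overlapped. The remaining ratios overlapped. PDHA1 over PDHB was 0.793 to 1.26 and 1.14 to 1.42, and GPD2 over GPD1L 0.215 to 0.264 and 0.254 to 0.412. SUCLG1 over the sum of SUCLG2 and SUCLA2 was 1.56 to 2.37 and 2.11 to 2.68.

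**Figure D5:**
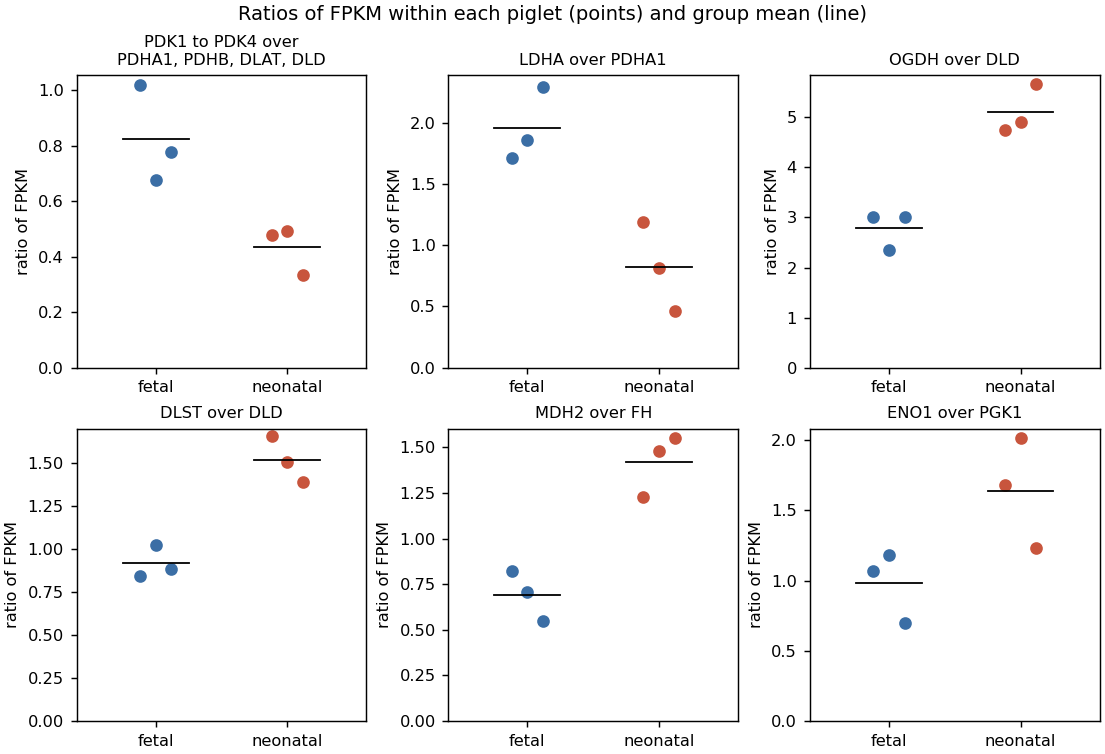
Ratio of FPKM within each piglet (points) for 6 pairs of enzymes or sums of them, with the group mean as a line. These 6 were picked, after their values were seen, from the ratios that did not overlap between the groups. Ratios that overlapped are not drawn. The kinase sum over the 4 listed complex subunits and LDHA over PDHA1 are lower in all neonatal piglets, at 0.334 to 0.493 and 0.466 to 1.19. The other 4 ratios are higher in all neonatal piglets.

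A further list of 50 genes of the same pathways and their regulators held 33 with a row. Of these, 1 passed (3.03%, against 6.87% of all mRNAs), 23 had the higher neonatal mean (69.7%, against 59.9%), and their median log2 difference was 0.34. The gene that passed was PCK2, the mitochondrial phosphoenolpyruvate carboxykinase, which draws carbon out of the TCA cycle towards phosphoenolpyruvate. It had 2.34, 1.70 and 2.16 FPKM in fetal and 6.40, 9.06 and 9.80 FPKM in neonatal lungs, far apart in every piglet (log2 difference 1.61, standard error 0.22, adjusted p = 0.00863 in limma). In 9 of the 33 genes (27.3%) the groups did not overlap, against 30.5% of all mRNAs.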

How the data were processed

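RNA was sequenced by the authors from strand-specific Ribo-Zero libraries of 6 lungs, 1 per piglet. The deposited FPKM were computed by the authors with Cufflinks 2.2.1 on TopHat 2.1.0 alignments to the Sscrofa10.2 build, and mRNAs above 0.5 FPKM in at least 1 sample were kept; no further filter was applied here. FPKM from fractional assignment keep no counts, so counting error is unknown. The authors' fold changes and q values were not used, and neither were the lncRNAs. Symbols came from a table of Ensembl names (9478 identifiers) or, for 349 more, from the names in a supplement of which only part was held; the 48 genes all took theirs from the former. Values were analysed as log2(FPKM + 1) with limma 3.58.1 under R 4.3.3, letting the prior variance follow the mean, in place of Cuffdiff, which needs alignments. Intervals are 95% limma intervals. Shares and exact permutation tests used Python 3.11.15, numpy 2.4.6 and pandas 2.3.3, and figures matplotlib 3.10.9. Simulated tables with known changes served to test the fit.

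All listed genes could be named with values, and genes of the second list only if past the threshold, except PDHX and the succinate dehydrogenase subunits. Members, lists and settings were chosen with earlier results of these data known. Alternatives were pseudocounts of 0.5 and 0.1, quantile normalization, median-of-ratios scaling, only mRNAs that exceed 1 FPKM in 3 samples or more, a constant prior variance, a block for the replicate number, and leaving out each piglet in turn; for shares, log2 differences and group means; for block shares, a total without the 100 highest mRNAs. Scaling to GAPDH and TOP2B was added after the data had been seen. Promoter motifs and protein identities were not analysed here.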

Additional observations from a re-analysis of the deposited data

How the results depend on the processing

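Counts of calls moved most. Over all mRNAs, 789 were higher and 212 lower; with the replicate number as a block these were 336 and 65, after median-of-ratios scaling 335 were lower, after quantile normalization 486 were lower, and scaled to GAPDH and TOP2B, a setting added after seeing the data, 493 were higher. With each piglet left out they ranged from 163 to 785 higher and from 33 to 159 lower. Among the 48 genes, the 5 higher calls became 3 after median-of-ratios scaling and without a variance trend, 2 after quantile normalization, 1 scaled to GAPDH and TOP2B and 0 with the block, and 0 to 3 with a piglet left out; the 1 lower call became 0 to 1. The filter above 1 FPKM added GPD2 (7 calls in all). The replicate numbers did not pair the samples: deviations of same-numbered piglets from their group means correlated across mRNAs between -0.0407 and 0.00047. The block left PFKFB3 alone past the threshold (adjusted p = 0.0456 in limma).

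The block medians moved with scaling. Median-of-ratios scaling gave 0.11 for glycolysis and 0.26 for the shuttles, scaling to GAPDH and TOP2B 0.090 and 0.25, and quantile normalization -0.089 for glycolysis, 0.15 for pyruvate control, 0.20 for the TCA cycle and 0.24 for the shuttles. With a piglet left out the shuttles ranged from 0.36 to 0.57.

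Among single genes, signs turned only in ones that did not pass. Median-of-ratios scaling gave -0.083 for HK1, -0.087 for PFKL, -0.067 for DLD, -0.046 for SUCLA2 and -0.15 for FH. Quantile normalization gave -0.17 for HK1, -0.0011 for GPI, -0.18 for PFKL, -0.39 for GAPDH, -0.10 for PGK1, -0.074 for PKM, -0.078 for DLD, -0.016 for PC, -0.15 for SUCLG1, -0.074 for SUCLA2 and -0.19 for FH. A pseudocount of 0.1 gave 0.074 for ENO2.

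With each piglet left out in turn, log2 differences ranged from -0.023 to 0.16 for HK1, -0.070 to 0.27 for PFKL, -0.38 to 0.43 for ENO2, -0.10 to 0.23 for PC, -0.16 to 0.32 for SUCLA2 and -0.092 to 0.11 for FH. Differences in share, in percentage points, ranged from -2.59 to 0.721 for HK2, -0.425 to 2.62 for PFKM, -7.63 to 0.252 for PDK1, -6.66 to 1.25 for SUCLG2, -3.87 to 1.49 for GPD1L and -1.62 to 3.69 for ME1, and for the share of all FPKM from -0.00616 to 0.000992 for the TCA genes and -0.00173 to 0.00159 for the shuttles. As log2 differences between isoforms, the contrasts were 0.28 for GPD1L and -0.054 for ME1, opposite in sign to their shares, and without the 100 highest mRNAs the TCA share differed by 0.0141 percentage points (-0.0023 in the whole total) and the share of all FPKM held by glycolysis by -0.0027 (-0.0825 in the whole total). The cause of these changes was not tested. The table gives no depth, and the lowest p of a permutation test with 3 piglets a group is 0.1.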
